A study of Homo sapiens with 24 samples.

Results

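KIAA1683, now named IQCN, is a gene on the minus strand of chromosome 19 whose neighbour upstream on that strand in the RefSeq gene order is JUND. It was read with every catalog probe that carries the gene name KIAA1683, which gave 2 of the 17535 catalog (mRNA) probes on a custom array that also holds 44002 probes for long noncoding RNAs (lncRNAs). The gene had been picked from these same arrays as one that was strongly higher in total RNA upon oxidative stress (OS) but not on heavy polysomes. Those 2 readouts are therefore given here as descriptions without a test. The wording of that choice did not hold for the probe it rested on, since its signal was also higher in the high polysome pool, by less than in total RNA.

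The arrays measured MRC5 cells, a human lung fibroblast line. Control cells were left without the oxidant, and OS cells received 0.2 mM hydrogen peroxide for 2 hours. From both, whole-cell (total) RNA and 3 pools of a sucrose gradient were labelled: untranslated (fractions 1 to 9, free particles and single ribosomes), low (fractions 10 to 14, light polysomes) and high (fractions 15 to 23, heavy polysomes). This gave 8 groups of 3 arrays, 24 in all. The methods describe independent RNA preparations, but the labels of control untranslated replicates 1 and 2 carry the same number with different endings, so that these may be a single preparation run again. The SD of their log2 difference over all probes was 0.935, which ranked 21 from the lowest among the 24 pairs of replicates. The other pairs of that group had SDs of 0.979 and 0.932, so the rank cannot tell whether replicates 1 and 2 are a single preparation. They were kept as separate arrays. With replicates 1 and 2 averaged, the untranslated pool changes below were 6.16 for KIAA1683 and 0.47 for JUND (adjusted p = 0.0593). If they are 1 preparation, p-values for that pool measure in part the spread between arrays. All lysates for the gradients, control and OS alike, came from cells that had been given cycloheximide, which holds ribosomes on the mRNA. An equal mass of RNA was labelled from every sample, so that a level in a pool is relative to the other RNA of that pool and is not the share of a transcript found there. The third OS array of the low pool stood apart, with 95.4% of catalog probes well above background against 43.4% to 67.7% on the other 23 arrays, and low pool results are given with and without it. In bulk RNA, more cells with a transcript and more of it per cell cannot be told apart.

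The protein encoded by KIAA1683 carries IQ motifs, which bind calmodulin, and is known from testis, where it acts in the shaping of sperm heads. JUND is an intronless gene for a subunit of AP-1, the dimeric transcription factor of the JUN, FOS and ATF families that responds to stress. Transcription that fails to end at a gene's poly(A) site and runs on into the next gene of that strand is called readthrough, and heat, osmotic and oxidative stress are known to raise it in cultured cells. A gene that lies downstream of another on the same strand is where such RNA would be read by a microarray, although a signal from the gene's own promoter would be read by the same probe.

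The 2 KIAA1683 probes and the JUND probe are shown by a stretch of 30 bases each, because the account turns on where they lie. All are 60-base probes in sense orientation. The first, called terminal here, ends with the hexamer AATAAA, the usual poly(A) signal, in capitals. The second, called interior, lies closer to JUND. The array design lists both KIAA1683 probes under the same 3 RefSeq transcripts. In GRCh37 the terminal probe covers chr19:18367923-18367982, the interior probe chr19:18377031-18377090 and the JUND probe chr19:18391371-18391430, all on the minus strand.
KIAA1683 terminal probe, last 30 bases: actcatggctctctgggtctaatgAATAAA
KIAA1683 interior probe, first 30 bases: tgcgaccatcacggcaaagaaccgacctca
JUND probe, first 30 bases: aagctggagcgcatctcgcgcctggaagag

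Along the direction of transcription JUND comes first, the interior probe 14.3 kb further and the terminal probe 9.1 kb beyond that, 23.4 kb from the JUND probe. The longest run that the terminal probe shares with any other probe on the array was 12 bases on either strand. For the interior probe it was 14 bases on its own strand and 16 on the other.

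The promoters of the pair are shown for the letters that AP-1 and the related CREB and ATF factors are known to bind. Within 250 bases before to 50 after the RefSeq start (GRCh38.p14), on either strand, the KIAA1683 promoter held 1 match to TGANTCA, beginning 25 bases before the start, and none to TGACGTCA. The JUND promoter held 1 match to TGACGTCA, beginning 200 bases before the start, and none to TGANTCA. The matches are in capitals, at chr19:18274459-18274488 and chr19:18281804-18281833 of the minus strand.
KIAA1683 (IQCN) promoter: gaacttggcttTGAGTCAcaaagctgctgc
JUND promoter: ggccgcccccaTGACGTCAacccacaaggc
Of 35116 such promoters, 7.71% held TGANTCA and 1.85% held TGACGTCA.

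The terminal probe separated OS from control in every RNA. In total RNA its log2 signal was 7.32, 7.00 and 7.00 on the control arrays and 12.30, 12.33 and 12.17 on the OS arrays. The lowest OS array lay 4.85 above the highest control array. The difference of the means was 5.16 on the log2 scale (SE 0.19, n = 3 per group), which is 35.7-fold. By size of change it ranked 3 among the 10630 catalog probes tested in total RNA.

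In the untranslated pool the same probe read 6.90, 7.20 and 6.57 in control and 12.91, 13.22 and 12.78 upon OS. No OS array came near the control arrays, and the smallest gap was 5.58. The signal rose by 6.08 (SE 0.19), or 67.7-fold. This was the top-ranked change among the 8025 catalog probes tested in that pool. One of the 3 control arrays did not have the probe well above background there, the only such array of the 24 for this probe. The probe therefore passed the filter through the OS arrays alone, so that its change here is a description, without a p-value. Its fold is against control signals near background. As total RNA includes the RNA of the pools, the change here and the p-value in the low pool are not independent of the gene's choice.

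On light polysomes the terminal probe also rose. The low pool read 6.98, 7.05 and 6.70 in control and 11.61, 11.81 and 11.61 upon OS. The groups were 4.55 apart at their nearest arrays. The change was 4.77 (SE 0.19), 27.2-fold, with an adjusted p of 4.91e-11 (limma over the 8 groups, Benjamini-Hochberg over all tested probes). Without the third OS array, which stood apart, the change was 4.90, with an adjusted p of 1.65e-10.

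The high pool gave 6.77, 6.97 and 7.45 in control and 10.96, 11.01 and 10.79 upon OS. Again the groups did not overlap, with 3.34 between the nearest arrays. The difference was 3.86 (SE 0.19), 14.5-fold, and ranked 11 among 10266 tested catalog probes. It was smaller than that in total RNA by 1.30 (SE 0.27) and smaller than that in the untranslated pool by 2.22 (SE 0.27). These last values are descriptions, as the gene was chosen by them.

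Upon OS the levels of the terminal probe therefore ran in the order untranslated (12.97 ± 0.23, SD, n = 3), total RNA (12.26 ± 0.09), low (11.68 ± 0.12) and high (10.92 ± 0.11). No neighbours in that order overlapped. In control the order was total RNA (7.11 ± 0.18), high (7.06 ± 0.35), low (6.91 ± 0.19) and untranslated (6.89 ± 0.31), and every neighbouring pair overlapped. Each of the 3 slides carried 1 array of every group. Within slides the change ran from 4.98 to 5.33 in total RNA, from 5.71 to 6.65 in the untranslated pool, from 4.63 to 4.91 in the low pool and from 3.34 to 4.19 in the high pool.

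**Figure D1:**
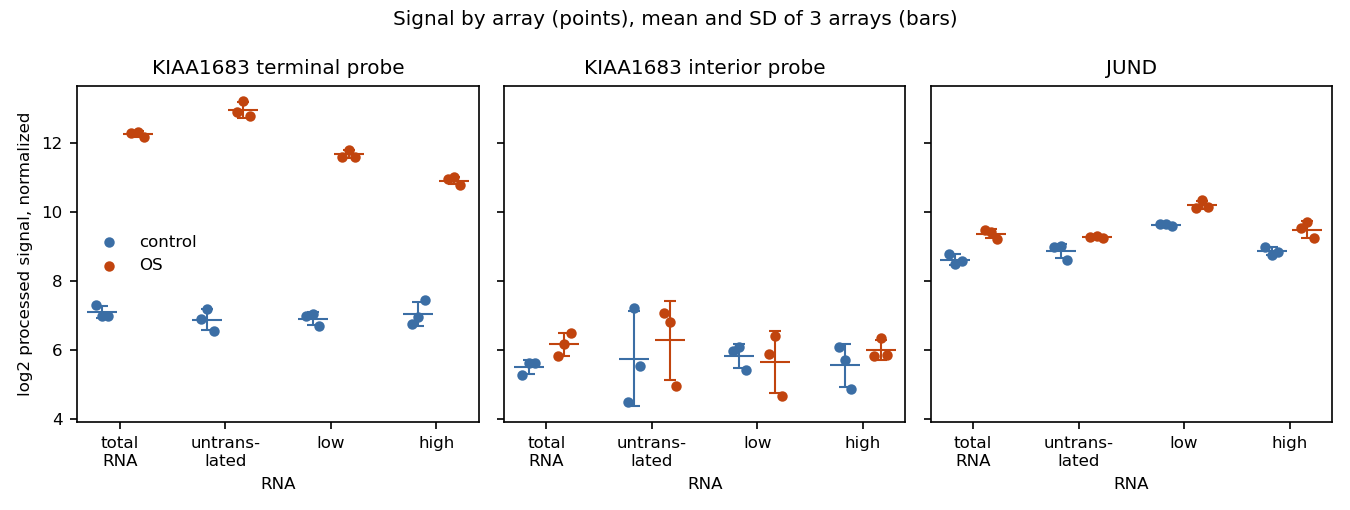
Log2 processed signal after normalization (y axis) by RNA (x axis) for both KIAA1683 probes and JUND, with 1 point per array, a horizontal bar for the mean and error bars for the SD of 3 arrays. The terminal probe lies between 10.79 and 13.22 on OS arrays and between 6.57 and 7.45 on control arrays, while the interior probe overlaps in all 3 pools; levels of different probes are not comparable.

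The interior probe of the same gene read a dim signal in all 8 groups. In total RNA it gave 5.28, 5.64 and 5.64 in control and 5.84, 6.18 and 6.49 upon OS. The arrays did not overlap but lay only 0.19 apart at their nearest, and the difference was 0.65 (SE 0.60). In the high pool it gave 6.10, 5.72 and 4.87 in control and 5.83, 6.36 and 5.85 upon OS, which overlapped, with a difference of 0.45 (SE 0.60).

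In the low pool the interior probe read 5.99, 6.09 and 5.44 in control and 5.90, 6.42 and 4.68 upon OS, and did not pass the test (−0.17, SE 0.60, adjusted p = 0.852). Without the third OS array, which stood apart, the sign turned to 0.33 (adjusted p = 0.931). In the untranslated pool it spread from 4.49 to 7.22 in control and from 4.96 to 7.08 upon OS. Both groups had it well above background on a single array of 3 there, and it was not tested. No order of the 8 groups could be read from it, since every neighbouring pair of groups overlapped. The SE of its change, from a spread shared by all 8 groups, was 0.60 against 0.19 for the terminal probe. With that SE a change of the size of that at JUND would not be resolved by it. Its SD was 0.21 in control and 0.33 in OS total RNA, against 1.38 and 1.15 in the untranslated pool. As a description, its change within slides ran from 0.54 to 0.85 in total RNA and from −0.27 to 0.98 in the high pool. For JUND in total RNA it ran from 0.64 to 0.92. The difference between the changes of the 2 probes was not tested. Labelling was primed from the poly(A) tail, and the effect of a probe's distance from that tail was not tested either.

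JUND, the gene upstream, rose by far less than the terminal probe. Its log2 signal in total RNA was 8.80, 8.51 and 8.58 in control and 9.48, 9.44 and 9.22 upon OS. The groups did not overlap, with 0.42 between them. The increase was 0.75 (SE 0.14), 1.68-fold, with an adjusted p of 0.00207. With arrays scaled to their 75th percentile the increase was 0.50 and without normalization 0.40, and neither passed the test (adjusted p = 0.866 and 0.358).

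On polysomes JUND passed the test in both pools, though neither call held under every alternative. The low pool read 9.65, 9.66 and 9.60 in control and 10.12, 10.35 and 10.15 upon OS, a rise of 0.57 (SE 0.14, adjusted p = 0.0209). Its sign turned to −0.51 (adjusted p = 0.385) under 75th percentile scaling, where the median change of all tested catalog probes in that pool was itself −1.01. The low pool call also ended in the authors' table (0.44, adjusted p = 0.0778), with quantile normalization over all probes (0.44, adjusted p = 0.0777), with normexp (0.28, adjusted p = 0.129), without normalization (0.40, adjusted p = 0.301) and with only the groups compared (0.57, adjusted p = 0.387). Without the third OS array the rise was 0.61 (adjusted p = 0.0144), and leaving out any single control array ended the call (0.58, 0.58 and 0.55, adjusted p = 0.06, 0.0625 and 0.082). The high pool read 8.99, 8.77 and 8.86 in control and 9.54, 9.72 and 9.24 upon OS, a rise of 0.63 (SE 0.14, adjusted p = 0.0125). The call was lost without the second control array (0.58, adjusted p = 0.0686) and without the second OS array (0.52, adjusted p = 0.0783). It was also lost with 75th percentile scaling (0.58, adjusted p = 1.0), without normalization (0.52, adjusted p = 0.323) and with only the groups compared (0.63, adjusted p = 0.0743).

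In the untranslated pool JUND read 8.98, 9.01 and 8.63 in control and 9.28, 9.31 and 9.26 upon OS. The groups did not overlap, but the difference of 0.41 (SE 0.14) had an adjusted p of 0.0547. Its changes in total RNA and in the high pool differed by 0.12 (SE 0.20, adjusted p = 1.0), with an interval of 2 SE from −0.29 to 0.53. The shift of JUND between pools, its high pool change minus its untranslated pool change, was 0.21 (SE 0.20, adjusted p = 0.686), beside the description of −2.22 for the terminal KIAA1683 probe. JUND was highest in the low pool in both conditions, at 10.21 upon OS and 9.64 in control.

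**Figure D2:**
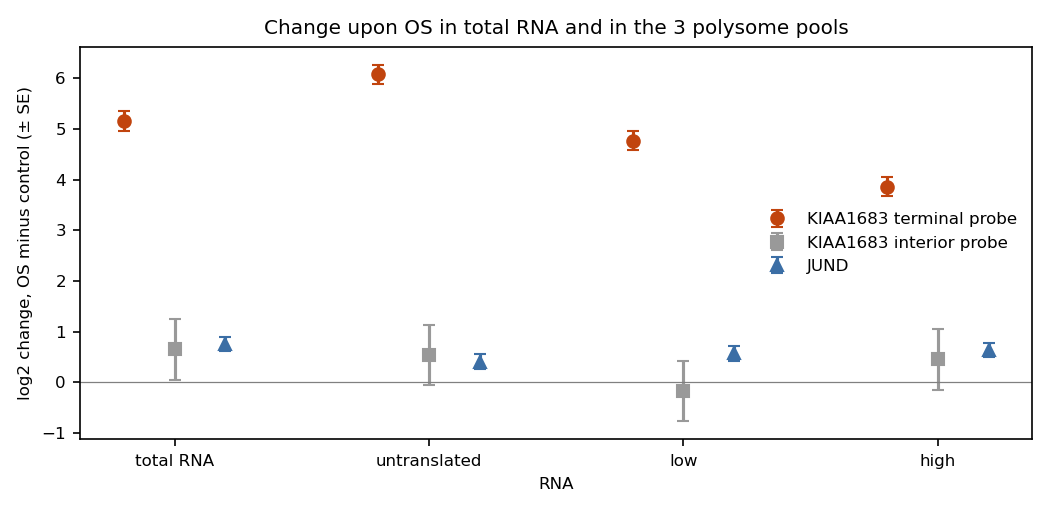
Log2 change upon OS (OS minus control, y axis) in total RNA and the 3 polysome pools (x axis), with error bars of 1 SE from the model over all 24 arrays. The terminal KIAA1683 probe lies between 3.86 and 6.08, JUND between 0.41 and 0.75 and the interior KIAA1683 probe between −0.17 and 0.65.

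The neighbours were taken by position to see whether RNA of the whole stretch was higher. Only catalog probes were placed, not those for lncRNAs. None that was kept lay between the JUND probe and the interior KIAA1683 probe, so no value is given for that interval. On the minus strand, 11 catalog probes of 10 other genes lay within 500 kb of the terminal probe, and all 11 were tested in total RNA. JUND was the only 1 called, against 5.77% of all tested catalog probes called in either direction. Their changes ran from −0.36 to 0.99 with a median of 0.10, and the median over all tested catalog probes was −0.02. No neighbour on either strand came near the 5.16 of the terminal probe.

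PDE4C, a phosphodiesterase that breaks down cyclic AMP, is the next gene downstream of KIAA1683 on its strand among the catalog probes, at 46.1 kb. It read 6.15, 5.10 and 5.60 in control total RNA and 6.65, 6.70 and 6.47 upon OS. The arrays did not overlap, yet the difference of 0.99 (SE 0.48) had an adjusted p of 0.316. The probe was dim, being well above background on 2 of the 3 control arrays. In the low pool its difference was −0.15 (adjusted p = 0.833) and in the high pool 0.05 (adjusted p = 1.0).

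RAB3A, a small GTPase of secretory vesicles, lies 60.3 kb downstream on the same strand. Its control arrays in total RNA read 9.21, 9.32 and 9.10 and its OS arrays 9.21, 9.34 and 9.20, so that they overlapped (0.04, SE 0.19, adjusted p = 0.996). LSM4, a subunit of the ring that binds U6 RNA and decaying mRNA, is on the other side of JUND at 52.7 kb. It read 11.95, 12.02 and 12.03 in control and 12.12, 12.05 and 12.23 upon OS (0.13, SE 0.17, adjusted p = 0.889). In the untranslated pool LSM4 was lower by 0.48 without passing the test (−0.48, adjusted p = 0.0534).

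Further along the strand, ISYNA1, which makes inositol phosphate, was the only same-strand gene within 500 kb called in the untranslated pool (0.71, adjusted p = 0.0302), where 27.3% of tested catalog probes were called. It also rose in the low pool (0.84, adjusted p = 0.0252), beside JUND, against 9.38% of catalog probes called there. In total RNA it differed by 0.20 (adjusted p = 0.847). In the high pool JUND was the only same-strand neighbour called, against 5.32% of catalog probes.

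On the plus strand, 10 probes of 9 genes lay within 500 kb, all tested in total RNA, and 1 was called. This was ARRDC2, an arrestin-domain protein, 243.7 kb away (0.59, SE 0.16, adjusted p = 0.0268). The median of the 10 was 0.22. The call was lost in 5 of the 6 fits that each left out 1 total RNA array and under 75th percentile scaling, no normalization, quantile normalization over all probes and no filter. Within 100 kb none of the 3 plus-strand probes was called by limma, and 2 had an unadjusted p under 0.05. They were MPV17L2, a mitochondrial protein (0.15, adjusted p = 0.609), PIK3R2, a regulatory subunit of PI3 kinase (−0.25, adjusted p = 0.219) and IFI30, a lysosomal thiol reductase (0.43, adjusted p = 0.0738).

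IFI30 rose in the untranslated pool, from 8.80, 8.77 and 8.44 in control to 9.66, 9.71 and 9.89 upon OS, without overlap (1.08, SE 0.14, adjusted p = 3.14e-05). In the low pool it rose by 0.54 (adjusted p = 0.0233), and in the high pool it differed by 0.30 (adjusted p = 0.338). The 2 probes of C19orf60, a gene 333.8 kb away on the plus strand, both rose in the high pool by 0.61 (adjusted p = 0.00372 and 0.00458).

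**Figure D3:**
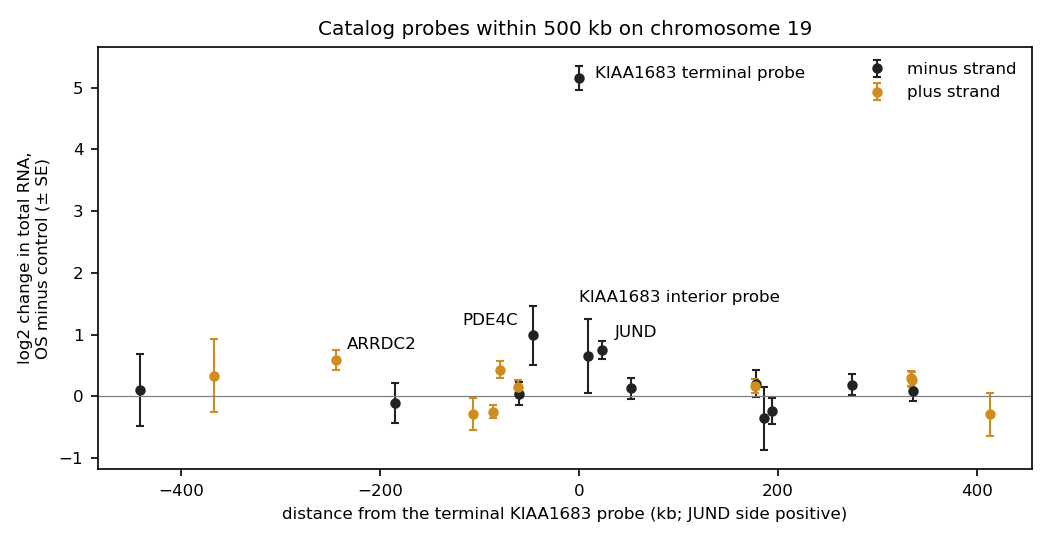
Log2 change in total RNA upon OS (OS minus control, y axis, error bars 1 SE) of catalog probes within 500 kb, by distance in kb from the terminal KIAA1683 probe (x axis, positive towards JUND), in black for the minus strand and orange for the plus strand. The terminal probe is at 5.16, while the other probes lie between −0.36 and 0.99.

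The same geometry was then read over the whole array. Of the catalog probes, 223 (217 genes) were called higher in total RNA with a change of at least 1, a count that includes KIAA1683, whose value met the same limits but had also chosen it. Downstream of these on the same strand within 50 kb, 55 nearest neighbours were found and 30 tested, of which 4 (13.3%) were called higher. Upstream on the same strand 5 of 68 (7.35%) were called higher, and on the downstream side of the opposite strand 2 of 54 (3.70%). With KIAA1683 left out as a raised gene the counts were 4 of 29, 4 of 67 and 2 of 54. The positions share pairs, because a gene and its neighbour can both be raised. The pairs of CCDC19 with VSIG8 and of an unnamed probe with RAB42 counted both downstream and upstream. The 2 opposite-strand calls were RAB44 and LOC100131043, each the neighbour of the other. RAB44, LOC100131043 and the unnamed probe were well above background on no control array of total RNA. They were tested through the OS arrays alone, so that the counts resting on them are descriptions. With the filter asking for signal above background in every group compared, the downstream count was 1. Of all tested catalog probes 3.00% were called higher. The median changes were 0.04, 0.10 and 0.04, so that most neighbours at any of these positions stayed near 0.

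The downstream neighbours called higher were VSIG8 (1.60, adjusted p = 0.0276), 22.3 kb after CCDC19 (2.05), RAB42 (1.15, adjusted p = 0.0137), 11.5 kb after an unnamed probe, VGF (1.00, adjusted p = 0.000487), 39.9 kb after DGAT2L7, and IL32 (0.56, adjusted p = 0.0295), 8.90 kb after MMP25 (3.35). JUND was counted among the upstream neighbours, with KIAA1683 as the raised gene. The 4 calls were few, and their number ran from 0 without normalization to 9 with only the total RNA groups in the fit. Leaving out the second total RNA array of control or of OS left 1 call, leaving out the first or the third of control or the first of OS left 2, and leaving out the third of OS left 3.

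**Figure D4:**
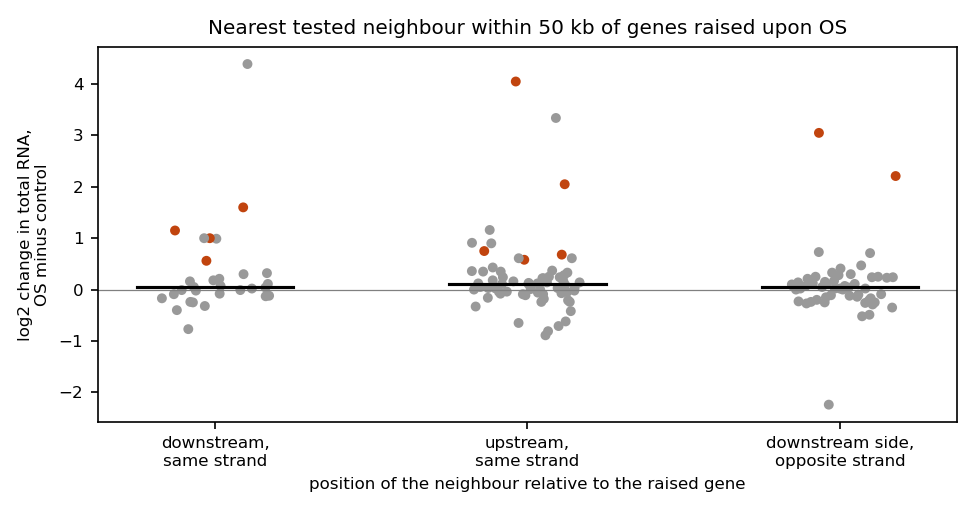
Log2 change in total RNA upon OS (y axis) of the nearest tested catalog neighbour within 50 kb of each gene raised by at least 1, by its position (x axis), with 1 point per neighbour, orange where called higher and a black line for the median. The medians are 0.04, 0.10 and 0.04, and 4 of 30, 5 of 68 and 2 of 54 neighbours were called higher.

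Beside KIAA1683, 318 catalog probes were called higher in total RNA, of which 231 were tested for the shift between pools. The median shift of these 231 was 0.35, towards the high pool. Of them 45 were called with a positive and 9 with a negative shift. Of all 10369 tested catalog probes 14.2% were called in either direction, 712 with a positive and 764 with a negative shift. The 231 include probes, such as FAM83E, that no control array measured well above background, which limits the median.

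Of the 9, 3 were well above background on all arrays of the 4 groups that give the shift. ITGA7, a laminin receptor subunit of muscle, had a shift of −1.52 (SE 0.24, adjusted p = 0.00088), PPP1R13L, an inhibitor of p53, of −1.09 (SE 0.23, adjusted p = 0.00597) and ENO3, the muscle enolase, of −0.91 (SE 0.18, adjusted p = 0.00396). The description for the terminal KIAA1683 probe was −2.22, with 2 of 3 control untranslated arrays well above background. For 5 of the others, FAM83E, MMP25, TCF15, AOC3 and LYPD3, no control array of the untranslated pool was, and for CCDC19 only 1 was, so that no size or order of their shifts is given.

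FAM83E was not well above background on any control array. Upon OS it was at least 12.5-fold higher in total RNA, 8.54-fold in the untranslated pool, 5.87-fold in the low pool and 4.73-fold in the high pool. It was tested through the OS arrays alone, so that these are descriptions. In such cases the fold is taken against the dimmest signal well above background on each control array, or the probe's own where that is brighter.

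The genes whose pattern was most like that of the terminal probe were ranked by Pearson's r over the 8 group means, among the 11448 catalog probes that all 3 arrays of some group measured well above background. As the rank follows the OS pattern itself, their levels are descriptions, without a test. The first 5 were HSH2D, an adaptor of blood cells (r = 0.992), KBTBD5, now KLHL40, a protein of the skeletal muscle thin filament (0.990), AOC3, an amine oxidase of vessel walls and fat (0.989), C9orf152 (0.987) and S100A14, a calcium-binding protein of epithelia (0.984). The interior KIAA1683 probe, left out of this ranking, had an r of 0.752, and JUND had an r of 0.552.

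None of these 5 was well above background on any control array of any RNA. HSH2D was at least 15.2-fold higher upon OS in total RNA and at least 7.07-fold higher in the high pool. S100A14 was at least 10.9-fold higher in total RNA, AOC3 at least 8.92-fold, C9orf152 at least 5.26-fold and KBTBD5 at least 1.78-fold. In the high pool the bounds were 2.45-fold for S100A14, 3.29-fold for AOC3, 2.61-fold for C9orf152 and 1.13-fold for KBTBD5. The terminal KIAA1683 probe was itself well above background on all but 1 of the control arrays.

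Of the 5, 4 had an upstream catalog gene on the same strand within 100 kb, and none of these was called higher in total RNA. RAB8A, 24.7 kb before HSH2D, changed by −0.02 (adjusted p = 0.996). PSME3, 14.9 kb before AOC3, changed by −0.09 (adjusted p = 0.936), and S100A13, 4.30 kb before S100A14, by 0.11 (adjusted p = 0.856). NKTR, 44.0 kb before KBTBD5, fell in total RNA by 0.81 (adjusted p = 0.0118). Whether JUND differed from these 4 was not tested.

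Among 14236 lncRNA probes the most alike were ENST00000466064.1 (r = 0.991), ENST00000415237.1 (0.989), ENST00000564127.1 (0.988), ENST00000552905.1 (0.983) and ENST00000470427.1 (0.981). None was well above background on any control array of total RNA. The bounds in total RNA, again descriptions, ran from at least 1.28-fold for ENST00000466064.1 to at least 4.84-fold for ENST00000552905.1.

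**Figure D5:**
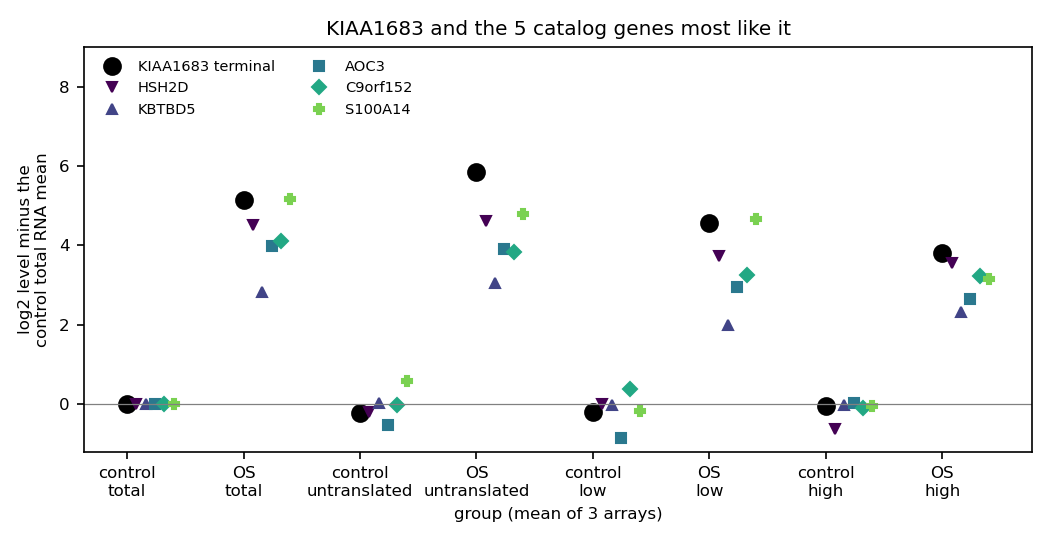
Group mean of 3 arrays minus the control total RNA mean of the same probe (log2, y axis) in the 8 groups (x axis) for the terminal KIAA1683 probe and the 5 catalog genes with the highest r. All 6 lie near 0 in the 4 control groups, where the 5 genes were not well above background, and are higher in the 4 OS groups.

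The lists of related genes were described by counts in total RNA, where 5.77% of tested catalog probes were called. Of the 15 AP-1 family genes listed, 6 were on the array, and JUN, FOS, FOSB and FOSL2 were not among them. The 6 had 9 tested probes, 4 of them for ATF3. Of these probes 5 rose, and the median change over the 9 was 1.20. They were 3 of the 4 probes of ATF3, a stress-induced repressor (4.70, 4.79 and 4.83), JUNB (1.32, adjusted p = 7.03e-05) and JUND. The other ATF3 probe differed by 0.66 (adjusted p = 0.319), BATF2 by 1.20 (adjusted p = 0.230), FOSL1 by −0.17 (adjusted p = 0.696) and MAFK by 0.03 (adjusted p = 0.992). In the high pool the same 3 ATF3 probes rose by 4.65 to 5.95 and JUNB by 1.35 (adjusted p = 9.37e-05).

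Other genes with IQ motifs were not called higher. Of 9 tested probes none was called higher by limma (1 at an unadjusted p under 0.05) and 3 fell, with a median of −0.11. ASPM, a protein of spindle poles, fell by 1.09 (adjusted p = 0.0256), IQGAP1, a scaffold of the cell cortex, fell by 0.58 (adjusted p = 0.0483), and IQSEC1, an exchange factor for ARF GTPases, fell by 0.52 (adjusted p = 0.00601). All 3 rose in the untranslated pool, by 1.48, 1.53 and 0.78. There 27.3% of the 8025 tested catalog probes were called in either direction, with 1133 called higher. IQGAP1 was also called higher in the low (0.65) and high (0.99) pools, and ASPM and IQSEC1 in neither. The count of 3 in total RNA came to 1 when the second or the third control array or the first or second OS array was left out.

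Among genes of spermatids and the acrosome, 9 probes were tested, 1 rose and none fell (none at an unadjusted p under 0.05), with a median of 0.07. The 1 was SPACA4, a sperm membrane protein, at least 2.03-fold brighter in total RNA upon OS. No control array of total RNA had it well above background. It was tested through the OS arrays alone, so that its rise is a description. Of the factors that cleave, polyadenylate and end transcripts, 21 probes were tested, 1 rose and none fell (none at an unadjusted p under 0.05), with a median of −0.01. The 1 was PCF11, which links cleavage to the release of RNA polymerase II. It rose by 1.41 in total RNA (adjusted p = 3.28e-05), 0.88 in the untranslated pool (adjusted p = 0.002), 1.10 in the low pool (adjusted p = 0.00089) and 1.40 in the high pool (adjusted p = 6.28e-05).

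The labelled cell type was checked in control total RNA. All 6 probes of the fibroblast markers COL1A1, COL3A1, COL5A1, LUM and THY1 were well above background, with a median of 13.59. Of the markers of other cell types, 2 of 4 epithelial probes (KRT8 and KRT18), 1 of 3 endothelial (CDH5), 1 of 3 leukocyte (PTPRC) and 1 of 3 germ cell probes (PRM2) were well above background. The highest epithelial value was 11.72, inside the range of the fibroblast markers, which began at 10.81. The highest of the other 3 groups was 6.89. On the 24 arrays no probe was saturated.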

How the data were processed

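The study hybridised Cy3-labelled RNA of MRC5 cells to a custom 8 × 60K Agilent array; labelling was primed from the poly(A) tail. The authors deposited Feature Extraction 10.7.3.1 files, whose processed intensity of each spot is already background-subtracted. Their log2 value table, likewise deposited, differed by at most 0.00145 from the log2 intensity after quantile normalization over all probes and served as an alternative. Positions are those of the file headers (GRCh37).

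Here log2 intensity was quantile-normalized separately over catalog and lncRNA probes, as the methods describe, after control spots and 178 outlier probes were left out. The 8 group means were modelled in limma 3.58.1 (R 4.3.3), and p-values were adjusted by Benjamini-Hochberg across all probes tested. Testing required a signal well above background on all 3 arrays of either group compared, and a call an adjusted p under 0.05. The steps were tested on simulated data. When 200 probes were raised by 1.5, 43% were recovered in total RNA, 63% in the untranslated, 44% in the low and 52% in the high pool. The number of arrays limits the precision. Groups came from the sample labels.

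The genes named are both KIAA1683 probes, JUND, catalog genes within 100 kb, listed genes called in total RNA, the 5 most alike per category, raised genes with a negative shift and called downstream neighbours. ISYNA1, ARRDC2 and C19orf60 were named after their values were seen, as were the list members that did not pass. The gene, the lists and the tests were chosen with earlier results of these data known. Sequences and current names come from RefSeq (GRCh38.p14, names and promoters only). Alternatives covered normalization, background correction, filters, blocks, windows and leaving out arrays.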

Additional observations from a re-analysis of the deposited data

Results flagged for a closer look

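IFI30, 79.1 kb from the terminal KIAA1683 probe on the opposite strand, differed in its response between gradient pools. Its high pool change minus its untranslated pool change was −0.78, which passed the interaction test of limma, with changes of 0.30 and 1.08. Of all tested catalog probes 14.2% were called for this shift. Groups of 3 arrays were not tested for single outlying arrays.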

How the results depend on the processing

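The change of the terminal KIAA1683 probe in the untranslated pool, a description, kept its direction under all 17 alternatives that gave a value, from 5.37 to 6.31. In the low pool its change kept its direction and its call under all 18, from 3.91 to 4.90 (adjusted p up to 0.00801). The filter asking for signal above background in every group compared left the untranslated pool change untested. The untested change of the terminal probe in total RNA moved to 4.92 with 75th percentile scaling, 4.83 without normalization and 4.42 with normexp and quantile normalization. In the high pool it moved to 4.23 with 75th percentile scaling and 3.15 with normexp. Leaving out 1 array at a time gave 5.94 to 6.25 in the untranslated pool, 4.64 to 4.90 in the low pool, 5.10 to 5.26 in total RNA and 3.69 to 4.02 in the high pool.

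JUND was less steady. In total RNA its call was lost with 75th percentile scaling (0.50) and without normalization (0.40). In the untranslated pool it gained the call with quantile normalization over all probes and in the authors' table (0.47 each), with normexp (0.35) and without the third OS array of the low pool in the whole fit (0.42). In the low pool the call was lost with quantile normalization over all probes and in the authors' table (0.44 each), without normalization (0.40), with normexp (0.28) and with only the groups compared (0.57), and the sign turned with 75th percentile scaling (−0.51). In the high pool it was lost with 75th percentile scaling (0.58), without normalization (0.52) and with only the groups compared (0.63). Without 1 array JUND ran from 0.69 to 0.83 in total RNA, 0.29 to 0.48 in the untranslated, 0.50 to 0.62 in the low and 0.52 to 0.76 in the high pool. Each of the 3 control arrays, left out, ended the low pool call. The difference between its total RNA and high pool changes turned to −0.09 with 75th percentile scaling and −0.12 without normalization, and ran from −0.01 to 0.23 without 1 array. The interior KIAA1683 probe in the low pool turned to 0.08 with 75th percentile scaling, 0.99 without normalization and 0.33 without the third OS array, and ran from −0.55 to 0.33 without 1 array. In the low pool the median change of tested catalog probes was −0.18 as reported and −1.01 with 75th percentile scaling. The cause of these differences was not tested.

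Of same-strand neighbours, 0 were called with 75th percentile scaling or without normalization, 2 with only the groups compared, and 1 whichever array was left out. Of opposite-strand neighbours, 0 were called with quantile normalization over all probes, 75th percentile scaling, no normalization, the authors' table, no filter or a window of 100 kb, 4 with only the groups compared, 3 without the third OS array of the low pool, and 0 to 1 without 1 array. Downstream neighbours called higher numbered 2 with quantile normalization over all probes, in the authors' table or within 20 kb, 1 with 75th percentile scaling or the stricter filter, 0 without normalization, 9 with only the groups compared, and 1 to 3 without 1 array. An alternative chosen after seeing the data, without KIAA1683 as a raised gene, left 4. With 75th percentile scaling 3 AP-1 probes rose, 0 IQ motif probes fell, 2 spermatid probes rose and 0 termination probes rose. IQ motif probes that fell numbered 1 without a filter and 1 to 2 without 1 array. Spermatid probes that rose numbered 0 with the stricter filter, 2 with the slide or the replicate block or with the first 2 control untranslated arrays averaged, and 3 with only the groups compared or without the third OS array of the low pool.

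The deviations of same-numbered arrays gave mixed correlations, from −0.261 to 0.358. In none of the 4 RNAs were all 3 above 0.1, although 2 of 3 were in total RNA (0.104 and 0.156) and in the high pool (0.271 and 0.358), so the numbers were not taken to pair the samples. With the replicate number as a block, JUND in the untranslated pool passed the test (0.41, adjusted p = 0.0394). The replicate block changed no other call of KIAA1683 or JUND. Dim probes near background, such as the interior KIAA1683 probe and PDE4C, had the largest errors.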
